A study of Mus musculus with 30 samples.

Results

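41 genes that mark macrophages and other phagocytes were followed in quadriceps muscle and spinal cord of Gaa knockout mice. They were taken by name from a deposited table of 17420 genes. Lilrb4a stood on 2 of the 42 matching rows, and the row whose identifier the GENCODE annotation gives to Lilrb4a was used. By role, 4 genes act in lineage and growth factor response, 10 are surface and adhesion molecules, 5 are Fc receptors and related receptors, 6 recognise or scavenge ligands, 5 belong to the phagolysosome, 4 to the NADPH oxidase and 7 to signalling and the actin skeleton.

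Macrophages take up particles and antibody-coated targets through surface receptors and digest them in phagosomes that fuse with lysosomes and receive oxidants from the NADPH oxidase. Csf1r, the receptor for the growth factors Csf1 and Il34, keeps them alive, and PU.1, the transcription factor encoded by Spi1, drives much of their gene programme. Skeletal muscle holds resident macrophages and draws in blood monocytes after injury, whereas the spinal cord holds microglia in its parenchyma and other macrophages at its borders. Pompe disease follows from loss of Gaa, whose product degrades glycogen inside lysosomes.

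Each of 15 male mice aged 4 months gave 1 library from each tissue, with 3 mice in each of 5 groups. On the B6;129 background there were Gaa WT and Gaa KO mice, both untreated. On the mixed B6;129;DBA2/J background there were untreated Gaa WT mice, untreated Gaa KO mice and treated Gaa KO mice, and all of these, wild types included, carried Ltbp4D36/D36. Treated mice had received AAV9-sp7-Δ8-hGAAco through the temporal vein on postnatal day 1 or 2. This vector encodes a secreted human GAA under LiMP, a promoter for liver and muscle. Column names carry a different letter for each background, so background and lettered series cannot be told apart and every knockout was compared with the wild type of its own background.

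The libraries held 16.9 to 37.1 M reads in quadriceps and 19.2 to 34.2 M in cord (M, mega), and 1 read was worth a signal of 0.0329 to 0.0720 in quadriceps and 0.0179 to 0.0369 in cord. Gaa itself checked the knockout and wild-type labels. Its signal was 169 to 308 in wild-type quadriceps and 11.6 to 18.9 in every knockout quadriceps, treated or not, and 131 to 236 against 8.09 to 17.7 in cord. It did not check the treatment labels, since treated and untreated knockouts were not called different by limma (adjusted p = 0.158 in quadriceps, 0.141 in cord). The tissues carried their own markers, with 6 muscle fibre genes summing to 117966 to 218110 in quadriceps and 6 neuron and glia genes to 15640 to 41823 in cord. Muscle fibre signal in cord, summed over the same 6 genes, lay between 29.0 and 391 except in the cords of mixed wild type 3 (1366) and treated animal 24 (1111). The cord of treated animal 24 also had the highest summed signal of 8 neutrophil genes, 65.5 against 6.90 to 39.6 in the other 14 cords. A gene was kept in a tissue when its signal was at least 1 in at least 3 libraries. Under this filter 41 of the 41 genes were kept in quadriceps and 38 in cord, where Ccr2, Ms4a7 and Msr1 stayed too low. In quadriceps 6 (Aif1, Cd84, Fcgr1, Ms4a7, Msr1 and Vav1), and in cord 2 (Lilrb4a and Ms4a6c), passed only because of untreated knockout libraries, so their calls and the size of their differences draw on that selection. Calls below are limma tests across all kept genes with a Benjamini-Hochberg adjusted p under 0.05, and each difference is on the log2(signal + 0.5) scale with its standard error.

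Signal of the 41 genes was higher in knockout muscle, and to a smaller extent in knockout cord. Summed over the genes, quadriceps of B6;129 wild types gave 132 ± 20.2 (SD, n = 3) and of knockouts 539 ± 62.5, a ratio of 4.09. On the mixed background the sums were 219 ± 34.0 in wild types, 581 ± 182 in knockouts and 213 ± 82.9 in treated knockouts. The 3 untreated mixed knockouts ranged from 394 to 758, which was the widest spread of any group, yet the lowest still exceeded every wild type and every treated animal. In cord the B6;129 sums were 238 ± 5.02 and 433 ± 3.67, and the mixed ones 257 ± 22.3, 446 ± 21.9 and, after treatment, 358 ± 70.2. The treated cords of animals 21, 22 and 24 gave 354, 290 and 431, so that 1 of the 3 lay within the range of the untreated knockouts. The sums are unweighted, so genes with high signal count most. In B6;129 quadriceps the 5 phagolysosome genes, which include Lyz2, had median sums of 46.4 in wild types and 249 in knockouts. More macrophages and more RNA per macrophage cannot be told apart in whole tissue. Muscle fibre markers moved the opposite way in quadriceps, from 159588 to 174301 in B6;129 wild types to 129133 to 139927 in knockouts, and from 163636 to 197676 to 117966 to 138584 on the mixed background. They were highest after treatment, at 203227 to 218110, and the part of this shift in the results was not tested.

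**Figure D1:**
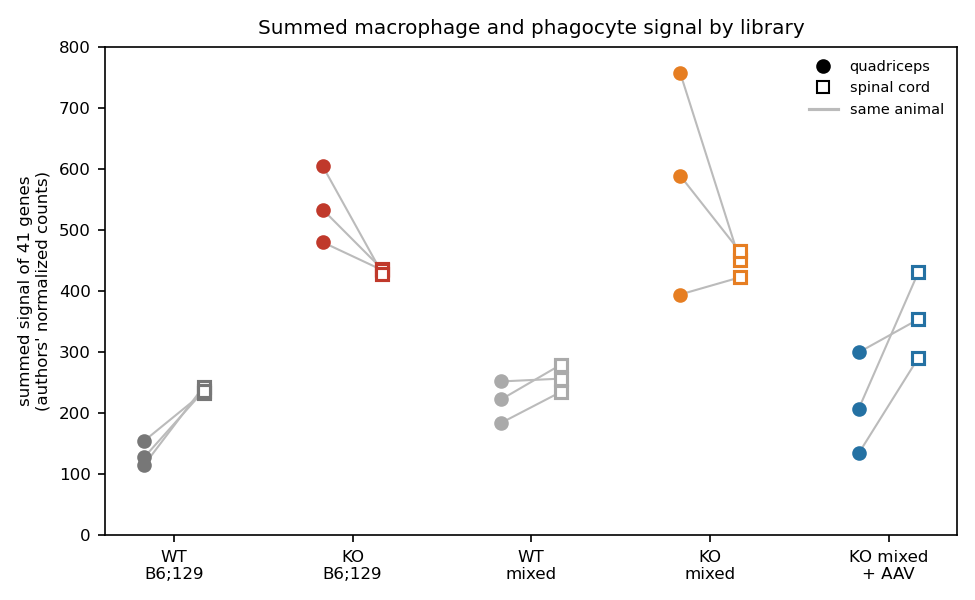
Summed signal of the 41 genes (vertical axis, the authors' normalized counts) in each library, by group; filled circles are quadriceps, open squares are cord, and a line joins the 2 tissues of 1 animal. Knockout quadriceps libraries lie between 394 and 758, and wild-type and treated ones lie between 115 and 299.

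On B6;129 quadriceps, 39 of 41 genes rose in the knockout, with a median difference of 1.66, and 0 fell. Of all 14113 genes tested 16.7% were called higher, and their median difference was -0.02. On the mixed background 32 of 41 rose, with a median of 1.15, where 17.1% of all genes were called higher. These 32 were among the 39, and the 7 called on B6;129 alone were Fcgr1, Fcgr2b, Mrc1, Msr1, Plek, Slc11a1 and Spi1. With 39 of 41 called on B6;129, this overlap was largely set by the counts. The share of all genes called on both backgrounds was not computed. A test of the knockout effect against background called 0 of 41 genes in quadriceps by limma and 0 by edgeR, with 3 at an unadjusted p under 0.05, while 0.283% of all genes were called in either direction. The estimate was nonetheless lower on the mixed background for 41 of 41 genes, with a median of -0.54, in genes that share these libraries. Over all genes 6658 were higher and 7455 lower there, with a median of -0.02. With no level filter the counts of genes that rose were 39 and 30, and among the 35 genes that passed the filter without untreated knockouts they were 33 and 28. Arhgdib and Cd163 were called on neither background.

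Treatment moved quadriceps the other way. 34 of 41 genes fell in treated against untreated mixed knockouts, with a median difference of -1.32, and 17.1% of all genes were called lower. Among the 35 genes that passed the filter without untreated knockouts 29 fell. 30 genes both rose on each background and fell with treatment. The mixed rise and the fall share the untreated mixed knockouts, so these calls are not independent. Aif1, Cd84, Ms4a7 and Vav1, among the 30, passed the filter only through untreated knockouts. The share of all genes with the same joint calls was not computed. Treated muscle compared with mixed wild-type muscle gave 0 called genes of 41 by limma and 0 by edgeR, with 1 gene, Plek, at an unadjusted p under 0.05, and 2.98% of all genes called in either direction. A missed call does not show equal levels: the median difference from wild type was -0.13, and single genes ranged from -0.80 to 0.32.

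In cord the rise was called for 19 of 38 kept genes on B6;129, with a median difference of 0.74, where 0.998% of 15838 genes were called higher. On the mixed background 23 of 38 rose, with a median of 0.74 and 7.16% of all genes called higher. 17 genes were called on both backgrounds, and 13 kept genes on neither: Arhgdib, Cd14, Cd163, Cd53, Coro1a, Csf2rb, Cybb, Lcp1, Ly86, Mrc1, Ms4a6c, Rac2 and Slc11a1. No kept gene fell on either background. Among the 36 genes that passed the filter without untreated knockouts 18 and 22 rose. 15 genes rose in each of the 4 knockout comparisons: Adgre1, Aif1, Cd68, Cd84, Cd86, Cyba, Fcer1g, Fcgr3, Itgb2, Laptm5, Lilrb4a, Mpeg1, Ncf1, Ncf4 and Vav1. Of these, Aif1, Cd84 and Vav1 in quadriceps and Lilrb4a in cord passed the filter only through untreated knockouts. The share of all genes that rose in each of the 4, or in cord on both backgrounds, was not computed.

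Treatment gave no called change in cord. The count was 0 of 38 by limma and 0 by edgeR, 0% of all 15838 genes were called lower, and edgeR called 2 of all genes in either direction. At an unadjusted p under 0.05 there were 15 of the 38, all lower in treated animals, where 10.7% of all genes passed it in either direction, and the median difference over the 38 was -0.31. Without treated animal 24, whose cord had the high muscle and neutrophil sums, 7 genes were called lower. Leaving out both cords with a summed muscle signal over 1000, an alternative chosen after seeing the data, gave 6. The share of all genes called lower in these refits was not computed, so the 7 and the 6 cannot be set against it. Against mixed wild types, 13 of 38 genes were still higher in treated cords (8.81% of all genes were called higher), and all 13 were among the 23 that rose in the untreated knockouts. Both comparisons use the same mixed wild-type cords, so these calls are not independent. The share of all genes with the same joint calls was not computed. The count of 13 became 5 when only the 2 groups compared entered the fit and 6 without the 2 cords carrying muscle RNA. For these fits too the share of all genes was not computed.

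**Figure D2:**
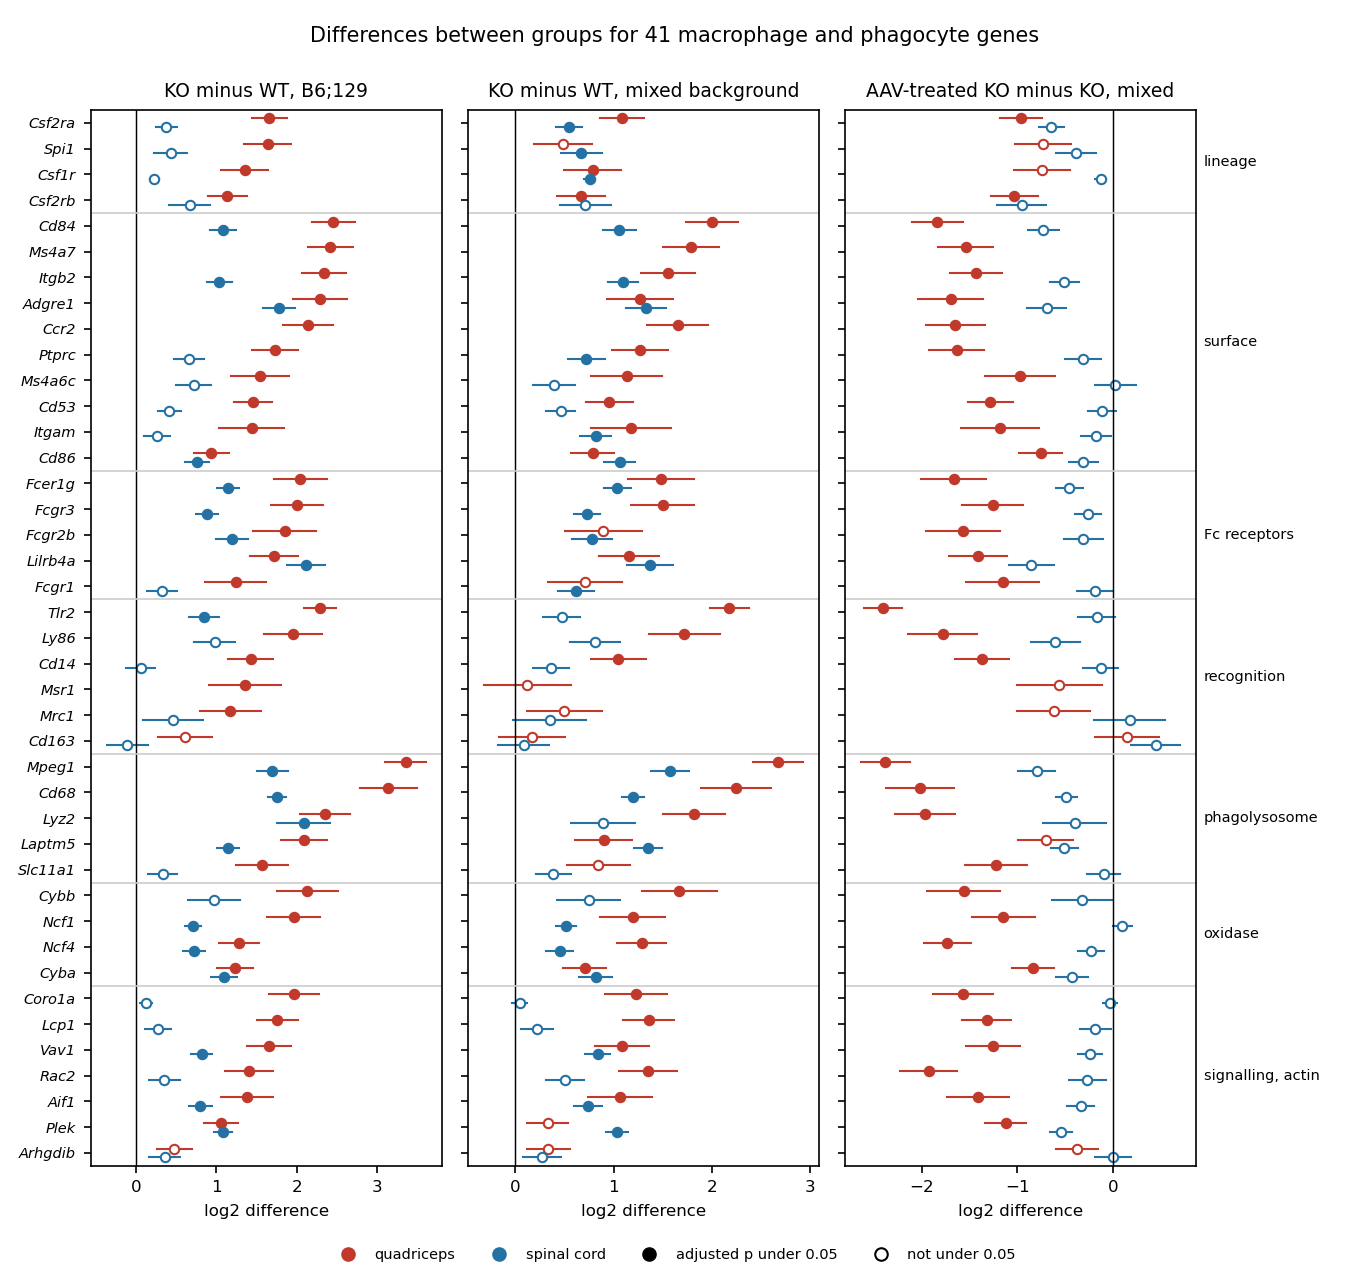
Log2 difference (horizontal axis, with 1 SE) of each of the 41 genes, ordered by role, for the knockout on B6;129, the knockout on the mixed background and treatment; red is quadriceps, blue is cord, and filled points have an adjusted p under 0.05. In quadriceps 39, 32 and 34 points are filled in the 3 panels, and in cord 19, 23 and 0.

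Among the lineage and growth factor genes, Csf1r had the highest signal. Its quadriceps signals were 9.90, 15.2 and 11.0 in B6;129 wild types and 34.3, 29.1 and 29.9 in knockouts, a difference of 1.35 ± 0.29 (adjusted p = 0.00282). Mixed wild types gave 21, 23.4 and 21.1, knockouts 58.7, 40.3 and 23.0, and treated knockouts 32.2, 15.4 and 23.0. The third mixed knockout sat among the wild types, so those groups overlapped, and the difference was 0.78 ± 0.29 (adjusted p = 0.0476). In cord the groups were tight: mixed wild types had 39.2, 40.3 and 40.2, knockouts 67.7, 68.5 and 67.0 and treated knockouts 62.7, 56.7 and 66.3. Every mixed knockout and treated cord exceeded every mixed wild-type cord, with differences of 0.76 ± 0.05 (adjusted p = 4.58e-06) and 0.62 ± 0.05 (adjusted p = 2.93e-05). On B6;129 the cords read 54.1, 52.0 and 48.6 in wild types and 60.0, 61.1 and 60.1 in knockouts, without overlap, and the difference of 0.23 ± 0.05 (adjusted p = 0.0591) was not called. Csf1r was the 1 gene of 38 whose knockout effect in cord differed between backgrounds, by 0.53 ± 0.08 (adjusted p = 0.00663), among 0.524% of all genes called either way. Its wild-type cords were lower on the mixed background.

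Csf2ra, the ligand-binding chain of the GM-CSF receptor, rose from 1.04, 1.07 and 0.767 to 3.42, 3.99 and 5.01 in B6;129 quadriceps, by 1.66 ± 0.22 (adjusted p = 8.50e-05). In mixed quadriceps it read 1.72, 1.56 and 1.83 in wild types, 4.66, 3.89 and 3.98 in knockouts and 2.72, 1.14 and 2.11 after treatment, and the knockouts stood above both other groups. Its cord signals were 7.92, 6.99 and 7.07 in wild types, 9.56, 12.2 and 11.2 in knockouts and 6.79, 5.36 and 8.63 in treated animals, and the difference with treatment, -0.64 ± 0.13 (adjusted p = 0.0891), was not called although the knockout and treated cords did not overlap. Csf2rb, the chain that signals for this receptor, rose in quadriceps by 1.14 and 0.67 and fell by 1.03 with treatment. In cord it differed by 0.67 ± 0.26 (adjusted p = 0.325) and 0.71 ± 0.26 (adjusted p = 0.0805), neither called, at signals of 0.193 to 2.06 that rest on few reads, and reads shared with the similar Csf2rb2 cannot be separated. Spi1 rose by 1.64 in B6;129 quadriceps and by 0.67 in mixed cord, whereas its mixed quadriceps value was 0.48 ± 0.29 (adjusted p = 0.209), not called.

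PU.1 binds purine-rich sites with the core GAGGAA, so the members' upstream sequences were searched for these letters on both strands, as a description of genes that moved together. RefSeq promoter windows were found for 30 of the 41 genes. In the 250 bases before the start site, 14 of the 30 genes (46.7%) held GAGGAA or its reverse TTCCTC in at least 1 window, against 25.9% of all genes with windows of the same length. A match is not evidence of binding. Windows with a match and at most 30 bases in annotated exons are shown for 3 genes that rose in quadriceps on both backgrounds, on GRCm38.p6 and read along the gene's strand, with the matching letters in capitals.
Cd68, chr11:69666171-69666420, minus strand: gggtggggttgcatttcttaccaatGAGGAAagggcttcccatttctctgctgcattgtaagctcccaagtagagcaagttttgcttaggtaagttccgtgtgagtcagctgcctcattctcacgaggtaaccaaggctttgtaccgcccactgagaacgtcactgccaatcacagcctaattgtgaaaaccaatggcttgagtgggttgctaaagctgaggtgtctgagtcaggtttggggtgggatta
Csf2ra, chr19:61228419-61228668, minus strand: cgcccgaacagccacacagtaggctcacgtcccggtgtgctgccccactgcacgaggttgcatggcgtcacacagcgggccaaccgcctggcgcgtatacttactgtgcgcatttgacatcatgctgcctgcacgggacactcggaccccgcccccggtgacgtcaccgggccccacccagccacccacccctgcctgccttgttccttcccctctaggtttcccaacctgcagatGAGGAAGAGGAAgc
Fcgr3, chr1:171059395-171059644, minus strand: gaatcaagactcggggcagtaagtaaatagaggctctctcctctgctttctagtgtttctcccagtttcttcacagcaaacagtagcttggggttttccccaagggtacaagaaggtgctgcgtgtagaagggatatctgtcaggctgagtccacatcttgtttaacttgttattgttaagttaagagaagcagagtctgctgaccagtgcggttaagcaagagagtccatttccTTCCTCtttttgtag
The Cd68 match begins 225 bases before the start site. In Csf2ra 2 matches follow each other, beginning 14 and 8 bases before it, and in Fcgr3 the match is on the other strand and 15 bases before it. Fcgr3 has 2 windows in the table, and the one shown lies inside the annotated Fcgr3 gene (chr1:171051174-171064935) with 27 of its bases in annotated exons. The Csf2ra window holds 11 exon bases and the Cd68 window 0.

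Of the 10 surface and adhesion genes, each rose in quadriceps on both backgrounds and fell with treatment. Of all quadriceps genes 16.7% were called higher on B6;129, 17.1% higher on the mixed background and 17.1% lower with treatment. Cd84, a self-binding receptor of the SLAM family, passed the filter in quadriceps only through untreated knockout libraries. Its quadriceps signal went from 0.180, 0.835 and 0.767 to 5.12, 4.64 and 6.07, by 2.46 ± 0.27 (adjusted p = 1.60e-05). Mixed quadriceps read 0.487, 0.948 and 0.979 in wild types, 5.90, 4.78 and 3.50 in knockouts and 1.01, 0.811 and 1.00 in treated animals, so that knockouts stood clear of both. In cord it read 2.69, 2.94 and 2.98 in wild types and 6.21, 6.73 and 6.92 in knockouts on B6;129, and 1.77, 1.92 and 2.25 in wild types, 4.63, 5.39 and 4.00 in knockouts and 2.88, 1.81 and 3.32 in treated animals of the mixed background. The cord rises were 1.08 ± 0.16 (adjusted p = 0.00334) and 1.06 ± 0.16 (adjusted p = 0.00151), and the difference after treatment, -0.73 ± 0.16 (adjusted p = 0.120), was not called.

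Itgam and Itgb2 are the chains of an integrin that binds complement-coated targets. Itgb2 rose from 1.19, 1.76 and 1.19 to 7.74, 7.86 and 11.6 in B6;129 quadriceps, by 2.34 ± 0.27 (adjusted p = 2.87e-05). In mixed quadriceps it was 2.44, 2.64 and 2.94 in wild types, 11.6, 8.70 and 6.74 in knockouts and 4.68, 1.79 and 2.95 in treated animals, and the knockouts did not overlap with either. Its cords read 4.34, 4.26 and 4.44 in wild types and 9.68, 8.48 and 10.3 in knockouts on B6;129, a rise of 1.04 ± 0.15 (adjusted p = 0.00293). Mixed cords gave 3.63, 2.90 and 3.48 in wild types, 7.16, 8.49 and 7.35 in knockouts and 4.91, 4.06 and 7.08 in treated animals, and the treated cords remained above wild type by 0.58 ± 0.15 (adjusted p = 0.0198). Itgam moved less evenly between backgrounds in cord. Its B6;129 cords, with 11.4, 7.78 and 7.70 in wild types and 13.6, 9.29 and 9.51 in knockouts, overlapped, with a difference of 0.26 ± 0.16 (adjusted p = 0.600), whereas mixed cords went from 8.66, 8.03 and 7.57 to 14.4, 16.3 and 13.3, by 0.82 ± 0.16 (adjusted p = 0.00547). The difference between backgrounds itself was 0.56 ± 0.22 (adjusted p = 0.334), not called. Itgam in quadriceps read 1.26, 2.79 and 2.67 in wild types and 8.35, 5.47 and 6.43 in knockouts on B6;129, and 2.70, 2.59 and 3.94 in wild types, 10.7, 8.18 and 4.70 in knockouts and 6.18, 1.40 and 2.88 in treated animals of the mixed background. The fall with treatment, -1.19 ± 0.41 (adjusted p = 0.0317), was called although 1 treated animal lay above the lowest knockout.

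Adgre1, the adhesion receptor recognised by a classic macrophage antibody, rose in quadriceps from 2.27, 2.33 and 1.79 to 12.8, 11.0 and 13.2, by 2.29 ± 0.34 (adjusted p = 0.000176). In mixed quadriceps it was 2.83, 5.10 and 4.00 in wild types, 14.5, 11.0 and 6.20 in knockouts and 4.63, 1.40 and 3.01 in treated animals, again highest in untreated knockouts. No difference between tissues was called for its knockout rise. Its cords read 2.34, 1.84 and 1.89 in wild types and 7.49, 7.85 and 9.12 in knockouts on B6;129, by 1.78 ± 0.20 (adjusted p = 0.000290), and 1.60, 2.26 and 1.94 in wild types and 6.05, 5.51 and 5.18 in knockouts on the mixed background, by 1.33 ± 0.20 (adjusted p = 0.00141). Treated cords were uneven at 2.78, 2.34 and 5.18, with animal 24 at the lowest knockout. Cd86, a ligand that costimulates T cells, likewise rose in both tissues, with quadriceps going from 0.612, 0.835 and 0.627 to 1.94, 1.63 and 1.76 and cord from 0.944, 0.833 and 1.19 to 1.89, 1.95 and 2.18 on B6;129. Its mixed cords read 0.962, 1.20 and 0.803 in wild types, 2.97, 2.63 and 2.19 in knockouts and 2.22, 1.67 and 2.10 in treated animals, and its mixed quadriceps 1.07, 1.20 and 0.715 in wild types, 2.87, 2.01 and 1.47 in knockouts and 1.06, 0.747 and 1.26 in treated animals. The treated group therefore lay near wild type in muscle and above it in cord, where the difference from wild type was 0.75 ± 0.15 (adjusted p = 0.00589).

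Cd53, a tetraspanin of white cells, was called in quadriceps and not in cord. It rose from 1.55, 1.70 and 1.28 to 4.73, 5.03 and 5.28 in B6;129 quadriceps, by 1.46 ± 0.24 (adjusted p = 0.000371), and its mixed quadriceps values were 2.24, 2.33 and 3.41 in wild types, 8.18, 5.77 and 3.56 in knockouts and 2.04, 1.66 and 2.30 in treated animals. Cords gave 3.59, 4.38 and 4.00 in wild types and 5.30, 5.73 and 5.4 in knockouts on B6;129 and 4.14, 6.53 and 5.59 in wild types, 7.09, 8.64 and 6.91 in knockouts and 6.16, 6.66 and 7.91 in treated animals of the mixed background, where the differences were 0.42 ± 0.14 (adjusted p = 0.254) and 0.46 ± 0.14 (adjusted p = 0.0504). Of the others, Ptprc, the phosphatase CD45 of all white cells, rose by 1.73 and 1.27 in quadriceps and in cord was called on the mixed background, at 0.72 ± 0.19 (adjusted p = 0.0242). Ccr2, the chemokine receptor of inflammatory monocytes, rose by 2.14 ± 0.31 (adjusted p = 0.000152) and 1.65 ± 0.31 (adjusted p = 0.000963) in quadriceps, from 1.37 to 2.68 in wild types up to 4.41 to 11.7 in knockouts. In cord Ccr2 never exceeded 0.679, and its mean per kilobase of exon on B6;129 was 0.0633 in wild types and 0.0669 in knockouts. Ms4a7, a membrane protein of macrophages, rose by 2.42 and 1.79 in quadriceps, where it passed the filter only through untreated knockout libraries. It was too low to test in cord, at 0.983 or less, where its mean per kilobase was 0.0348 in wild types and 0.198 in knockouts on B6;129 and 0.0180 and 0.0788 on the mixed background. Ms4a6c, which has close relatives that may share its reads, rose by 1.54 and 1.13 in quadriceps and was not called in cord.

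Fc receptors bind antibody on a target and trigger its uptake. Fcer1g, the signalling chain of the activating ones, rose in quadriceps from 1.62, 1.81 and 2.35 to 9.53, 6.90 and 12.8 on B6;129, by 2.05 ± 0.33 (adjusted p = 0.000392). Mixed quadriceps stood at 1.01, 1.87 and 3.04 in wild types, 8.32, 5.88 and 4.34 in knockouts and 2.46, 1.07 and 1.33 in treated animals, without overlap between the knockouts and either group. Its cords rose from 3.56, 3.28 and 4.30 to 8.40, 8.95 and 8.90, by 1.14 ± 0.14 (adjusted p = 0.000467), and from 5.35, 5.15 and 4.17 to 9.35, 11.5 and 10.8, by 1.04 ± 0.14 (adjusted p = 0.000491). Treated cords at 7.18, 6.34 and 9.27 lay below every mixed knockout, animal 24 closely, and above every mixed wild type, by 0.58 ± 0.14 (adjusted p = 0.0119).

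Fcgr3, an activating IgG receptor, followed the same course. Quadriceps read 2.63, 1.35 and 1.60 in wild types and 8.00, 8.12 and 10.2 in knockouts on B6;129, and 2.05, 2.74 and 4.74 in wild types, 11.4, 9.59 and 7.64 in knockouts and 5.82, 2.11 and 3.79 in treated animals of the mixed background. Cords read 5.65, 4.79 and 4.07 in wild types and 8.62, 10.1 and 9.27 in knockouts, then 5.35, 7.31 and 6.84 in wild types, 10.3, 10.3 and 12.5 in knockouts and 9.66, 7.92 and 9.74 in treated animals. Its rises were 2.00 ± 0.32 (adjusted p = 0.000344) and 1.50 ± 0.32 (adjusted p = 0.00246) in muscle and 0.89 ± 0.14 (adjusted p = 0.00347) and 0.73 ± 0.14 (adjusted p = 0.00449) in cord, and the fall with treatment in muscle was -1.26 ± 0.32 (adjusted p = 0.00665). Fcgr2b, the inhibitory IgG receptor, whose sequence resembles that of Fcgr3, rose by 1.85 in B6;129 quadriceps and by 1.19 and 0.78 in cord. In mixed quadriceps 1 wild type reached 11.6, above the lowest knockout at 9.14, and the difference was 0.89 ± 0.39 (adjusted p = 0.0841), not called. Fcgr1, the high-affinity IgG receptor, rose by 1.24 in B6;129 quadriceps and 0.62 in mixed cord. It passed the quadriceps filter only through untreated knockout libraries.

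Lilrb4a, an inhibitory receptor of the immunoglobulin family, passed the filter in cord only through untreated knockout libraries. Its cords rose from 0.712, 0.676 and 0.670 to 4.73, 4.89 and 4.34, by 2.12 ± 0.23 (adjusted p = 0.000196). Mixed cords were lower throughout, at 0.152, 0.187 and 0.236 in wild types and 1.34, 1.01 and 1.57 in knockouts, and the rise was 1.37 ± 0.23 (adjusted p = 0.00259). Treated cords gave 0.332, 0.228 and 1.09, and here animal 24 again reached the knockouts. In quadriceps it read 0.828, 2.33 and 1.65 in wild types and 6.21, 5.99 and 6.10 in knockouts on B6;129, and 2.96, 3.00 and 5.96 in wild types, 10.5, 10.4 and 6.62 in knockouts and 3.65, 2.17 and 3.60 in treated animals of the mixed background. The second row under this name, which GENCODE assigns to an overlapping gene that may share its reads, was not called in B6;129 quadriceps (1.63, adjusted p = 0.0703).

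Among the recognition and scavenger genes, Tlr2, which senses bacterial lipoproteins, had the smallest adjusted p of the 41 genes for treatment in muscle. Quadriceps stood at 1.12, 1.76 and 1.56 in B6;129 wild types and 8.88, 9.43 and 8.96 in knockouts, by 2.29 ± 0.20 (adjusted p = 2.53e-06). In the mixed groups it was 1.92, 1.41 and 2.30 in wild types, 13.6, 9.32 and 8.06 in knockouts and 1.48, 1.40 and 1.65 in treated animals, a rise of 2.17 ± 0.20 (adjusted p = 3.69e-06) and a fall with treatment of -2.40 ± 0.20 (adjusted p = 1.41e-06). The treated muscles, at 1.40 to 1.65, lay at the bottom of the wild-type range of 1.41 to 2.30 or just under it. In cord Tlr2 rose on B6;129 from 2.22, 2.72 and 3.64 to 5.70, 4.95 and 5.74, by 0.85 ± 0.19 (adjusted p = 0.0471), and mixed cords at 2.08, 2.55 and 2.79 in wild types, 3.66, 3.32 and 3.81 in knockouts and 2.74, 2.44 and 4.5 in treated animals gave 0.47 ± 0.19 (adjusted p = 0.119), not called. Cd14, the partner of toll-like receptors in sensing endotoxin, and Ly86, a secreted partner of a related receptor, rose in quadriceps by 1.43 and 1.95 on B6;129 and by 1.05 and 1.72 on the mixed background. Neither was called in cord, where Ly86 read 0.98 ± 0.26 (adjusted p = 0.0992) and 0.81 ± 0.26 (adjusted p = 0.0522).

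The 3 scavenger receptors were not called in mixed quadriceps. Mrc1, the mannose receptor of resident and repair-type macrophages, read 6.66, 12.1 and 8.48 in B6;129 wild-type quadriceps and 22.1, 21 and 18.7 in knockouts, by 1.17 ± 0.38 (adjusted p = 0.0285). Mixed muscles overlapped throughout, at 16.2, 17.3 and 18.8 in wild types, 43.5, 27.7 and 12.4 in knockouts and 25.8, 9.77 and 15.9 in treated animals, and its rise and its fall were not called. Its cord signals were low, from 0.760 to 3.42 over the 15 libraries, with the highest in mixed knockout 6. Cd163, the receptor for haemoglobin bound to haptoglobin, was at 6.52, 9.65 and 6.62 in wild types and 13.5, 12.7 and 9.26 in knockouts in B6;129 quadriceps and 13.8, 12.3 and 11.1 in wild types, 22.8, 16.6 and 7.10 in knockouts and 21.6, 11.5 and 15.0 in treated animals of the mixed background. These groups overlapped, and the differences were 0.61 ± 0.33 (adjusted p = 0.173) and 0.17 ± 0.33 (adjusted p = 0.719) for the knockout and 0.15 ± 0.33 (adjusted p = 0.759) for treatment. Cd163 in cord ranged from 0.502 to 1.80 with no call. Msr1, scavenger receptor class A, rose by 1.35 ± 0.45 (adjusted p = 0.0298) in B6;129 muscle, differed by 0.12 ± 0.45 (adjusted p = 0.852) in mixed muscle, and was not kept in cord. It passed the quadriceps filter only through untreated knockout libraries. Leaving out any 1 B6;129 library other than wild type 5 ended the B6;129 calls of Msr1 and Mrc1.

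Of the 5 phagolysosome genes, Mpeg1, which encodes a pore-forming protein that attacks engulfed microbes, had the largest difference of the 41 in B6;129 quadriceps. It stood at 2.27, 2.45 and 2.21 in wild types and 28.8, 20.7 and 37.8 in knockouts, by 3.36 ± 0.26 (adjusted p = 8.71e-07). Mixed quadriceps read 3.22, 4.18 and 2.09 in wild types, 29.7, 21.8 and 16.8 in knockouts and 4.63, 3.08 and 3.99 in treated animals, so every knockout exceeded every wild type and treated animal, by 2.67 ± 0.26 (adjusted p = 5.38e-06) over wild type. Cords rose from 17.4, 17.8 and 20.7 to 63.7, 57.0 and 63.5, by 1.70 ± 0.19 (adjusted p = 0.000260), and from 12.0, 12.9 and 12.5 to 43.0, 40.2 and 31.6, by 1.57 ± 0.19 (adjusted p = 0.000264). Treated cords lay between at 21.4, 14.7 and 31.9, with animal 24 just above the lowest knockout.

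Cd68, a heavily glycosylated protein of phagocyte lysosomes, rose from 1.19, 2.74 and 2.35 to 18, 21.1 and 26.2 in B6;129 quadriceps, by 3.14 ± 0.36 (adjusted p = 2.16e-05). Its mixed quadriceps were at 2.96, 3.10 and 9.13 in wild types, 28.0, 21.9 and 19.5 in knockouts and 6.5, 3.86 and 5.80 in treated animals, where 1 wild type was high and still below every knockout. In cord it had the smallest adjusted p of the 38 genes on B6;129, with 2.57, 3.13 and 2.96 in wild types and 9.78, 10.9 and 12.1 in knockouts, a rise of 1.75 ± 0.11 (adjusted p = 6.86e-07). Mixed cords read 2.95, 3.21 and 2.88 in wild types, 8.52, 7.14 and 7.09 in knockouts and 4.80, 5.29 and 5.61 in treated animals, 3 ranges that did not overlap. The difference with treatment, -0.49 ± 0.11 (adjusted p = 0.120), was not called, and the treated cords stayed above wild type by 0.70 ± 0.11 (adjusted p = 0.00122).

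Lyz2, lysozyme of macrophages and neutrophils, had the highest quadriceps signal of all, though reads shared with its neighbour Lyz1 cannot be separated. It went from 28.6, 39.0 and 35.5 to 178, 157 and 197 on B6;129, by 2.36 ± 0.31 (adjusted p = 8.21e-05). Mixed quadriceps gave 42.5, 61.5 and 66.8 in wild types, 264, 220.0 and 134 in knockouts and 82.0, 29.4 and 52.9 in treated animals, a fall with treatment of -1.97 ± 0.31 (adjusted p = 0.000235). In cord Lyz2 rose on B6;129 from 11.0, 7.62 and 7.14 to 41, 41.4 and 30.9, by 2.09 ± 0.33 (adjusted p = 0.00391), whereas mixed cords at 11.1, 27.8 and 13.7 in wild types and 37.8, 28.8 and 25.9 in knockouts overlapped and gave 0.89 ± 0.33 (adjusted p = 0.0848), not called. The high mixed wild type was animal 3, 1 of the 2 whose cord carried muscle RNA, and the part of that RNA in its Lyz2 signal was not tested. Treated cords read 28.0, 13.5 and 31.6.

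Laptm5, a lysosomal membrane protein of blood-derived cells, rose in B6;129 quadriceps from 3.64, 5.62 and 4.72 to 18.6, 17.7 and 28.8, by 2.09 ± 0.29 (adjusted p = 0.000112). Mixed quadriceps read 5.88, 7.05 and 8.29 in wild types, 14.5, 12.6 and 13.6 in knockouts and 14.4, 5.23 and 6.97 in treated animals, a rise of 0.90 ± 0.29 (adjusted p = 0.0248). Treated animal 21 matched the knockouts, and the difference with treatment, -0.70 ± 0.29 (adjusted p = 0.0672), was not called. Its cords read 15.2, 15.6 and 20.5 in wild types and 35.5, 38.8 and 40.4 in knockouts, by 1.15 ± 0.14 (adjusted p = 0.000492), and 18.9, 19.0 and 19.8 in wild types and 50.3, 52.0 and 46.9 in knockouts, by 1.35 ± 0.14 (adjusted p = 6.30e-05). Treated cords at 34.9, 27.1 and 44.2 stood between the 2 groups. Slc11a1, a metal transporter of the phagosome membrane, rose by 1.57 ± 0.32 (adjusted p = 0.00199) in B6;129 quadriceps, missed the call in mixed quadriceps at 0.84 ± 0.32 (adjusted p = 0.0532), and was not called in cord.

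The NADPH oxidase consists of a membrane pair, Cybb and Cyba, and cytosolic subunits that include Ncf1 and Ncf4. Each of the 4 rose in quadriceps on both backgrounds and fell with treatment. Beside these, 16.7% of all genes were called higher on B6;129, 17.1% higher on the mixed background and 17.1% lower with treatment. Cyba read 4.29, 5.67 and 3.97 in wild types and 10.4, 9.47 and 15.1 in knockouts in B6;129 quadriceps, by 1.23 ± 0.22 (adjusted p = 0.000806), and 5.23, 6.74 and 8.34 in wild types, 13.8, 12.1 and 8.24 in knockouts and 6.65, 5.62 and 5.87 in treated animals of the mixed background. The lowest mixed knockout lay just under the highest wild type. In cord Cyba rose from 2.72, 2.91 and 3.24 to 6.23, 7.82 and 6.65 on B6;129, and from 5.62, 8.06 and 5.84 to 10.8, 13.5 and 10.9 on the mixed background, by 1.10 ± 0.16 (adjusted p = 0.00334) and 0.82 ± 0.16 (adjusted p = 0.00684). Treated cords read 8.12, 6.94 and 11.1, and overlapped with both other groups. Cybb, the catalytic subunit, rose by 2.13 ± 0.38 (adjusted p = 0.000748) and 1.67 ± 0.38 (adjusted p = 0.00364) in quadriceps, while its cord differences of 0.97 ± 0.32 (adjusted p = 0.223) and 0.74 ± 0.32 (adjusted p = 0.143) were not called.

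Ncf1 stood at 0.828, 1.87 and 0.395 in B6;129 wild-type quadriceps and 4.03, 5.82 and 5.34 in knockouts, and at 2.83, 2.33 and 2.78 in wild types, 9.08, 7.18 and 4.52 in knockouts and 4.06, 2.43 and 2.04 in treated animals of the mixed background. Its cords read 4.84, 4.35 and 4.46 in wild types and 7.79, 8.32 and 7.11 in knockouts, by 0.70 ± 0.10 (adjusted p = 0.00178), and 7.65, 6.21 and 8.39 in wild types and 10.9, 10.4 and 10.9 in knockouts, by 0.52 ± 0.10 (adjusted p = 0.00526). Treated cords at 10.9, 11.6 and 11.9 were at or above every knockout, and Ncf1, which changed with treatment in muscle by -1.15 ± 0.33 (adjusted p = 0.0136), gave 0.09 ± 0.10 (adjusted p = 0.800) in cord. Ncf4 was low in both tissues, at 0.396, 0.720 and 0.302 in wild types and 1.72, 1.76 and 2.02 in knockouts in B6;129 quadriceps and 0.942, 1.10 and 1.35 in wild types, 3.97, 3.16 and 3.27 in knockouts and 0.854, 0.292 and 1.07 in treated animals of the mixed background. Cords gave 0.538, 0.644 and 0.438 in wild types and 1.29, 1.23 and 1.11 in knockouts, then 1.43, 1.46 and 1.40 in wild types, 1.89, 2.51 and 2.05 in knockouts and 1.59, 1.67 and 1.99 in treated animals. Knockout libraries were above wild type in each of these 4 comparisons, with cord rises of 0.72 ± 0.14 (adjusted p = 0.0159) and 0.45 ± 0.14 (adjusted p = 0.0443).

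Of the 7 signalling and actin genes, Coro1a and Lcp1 had the highest signal in cord and the weakest response there. Coro1a, coronin of white cells, which binds actin, was at 20.9, 20.5 and 21.4 in B6;129 wild-type cords and 23.4, 24.2 and 20.9 in knockouts. Mixed cords read 28.2, 30.5 and 29.4 in wild types, 28.5, 34.1 and 28.3 in knockouts and 29.4, 29.7 and 29.3 in treated animals, and the knockout differences were 0.12 ± 0.07 (adjusted p = 0.582) and 0.04 ± 0.07 (adjusted p = 0.752). In quadriceps it rose from 1.40, 2.68 and 2.58 to 8.48, 9.00 and 12.6, by 1.97 ± 0.31 (adjusted p = 0.000318), and was 2.76, 3.41 and 5.16 in wild types, 12.1, 8.70 and 7.46 in knockouts and 3.8, 1.53 and 3.53 in treated animals of the mixed background. All knockout muscles were thus above wild type, whereas cords overlapped. Lcp1, an actin-bundling plastin, went from 4.65, 5.21 and 5.14 to 18.6, 17.6 and 18.1 in B6;129 quadriceps, by 1.76 ± 0.26 (adjusted p = 0.000167), and was 5.17, 6.79 and 6.33 in wild types, 23.4, 17.8 and 10.2 in knockouts and 8.26, 4.19 and 6.84 in treated animals of the mixed background. Its cords read 24.5, 26.3 and 22.6 in wild types and 28.0, 28.4 and 32.7 in knockouts, then 19.0, 21.6 and 24.8 in wild types, 24.4, 24.8 and 26.6 in knockouts and 19.3, 17.6 and 32.0 in treated animals, with treated animal 24 highest of the mixed groups and no call.

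Plek, pleckstrin, a substrate of protein kinase C, gave a larger mixed-background rise in cord than in quadriceps. Its cords rose from 8.35, 8.37 and 7.29 to 16.8, 16.6 and 19.2, by 1.08 ± 0.11 (adjusted p = 0.000117), and from 7.27, 7.71 and 8.51 to 15.5, 17.4 and 16.6, by 1.03 ± 0.11 (adjusted p = 0.000115). Treated cords at 11.2, 9.26 and 13.3 lay between, and were still above wild type by 0.48 ± 0.11 (adjusted p = 0.0109). In quadriceps it read 1.98, 2.45 and 1.70 in wild types and 5.69, 3.38 and 5.57 in knockouts on B6;129, by 1.06 ± 0.21 (adjusted p = 0.00158), and 3.41, 3.51 and 4.63 in wild types, 5.77, 4.88 and 4.22 in knockouts and 2.46, 1.66 and 1.91 in treated animals of the mixed background. There the knockouts overlapped wild type, at 0.33 ± 0.21 (adjusted p = 0.235), and the treated animals lay below both, with a fall of -1.12 ± 0.21 (adjusted p = 0.000806).

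Vav1, a signalling protein of blood cells, rose in each of the 4 knockout comparisons, but passed the filter in quadriceps only through untreated knockout libraries. Quadriceps went from 0.396, 0.663 and 0.349 to 1.94, 2.42 and 3.37 and, on the mixed background, read 0.942, 0.846 and 0.662 in wild types, 2.59, 2.22 and 2.07 in knockouts and 1.16, 0.227 and 0.810 in treated animals. Cords went from 2.46, 2.06 and 2.17 to 4.47, 4.20 and 4.22, by 0.82 ± 0.13 (adjusted p = 0.00356), and read 3.12, 2.98 and 2.19 in wild types, 5.08, 5.93 and 4.88 in knockouts and 4.07, 4.48 and 4.68 in treated animals of the mixed background. Treated cords were above every wild type, by 0.60 ± 0.13 (adjusted p = 0.00644). Rac2, a GTPase that also drives the oxidase, rose in quadriceps from 1.12, 0.835 and 1.05 to 2.90, 2.90 and 4.92, by 1.41 ± 0.30 (adjusted p = 0.00234), and read 1.01, 1.92 and 1.83 in wild types, 6.25, 4.15 and 3.98 in knockouts and 1.53, 0.422 and 0.875 in treated animals of the mixed background. Its cords gave 1.76, 1.59 and 1.67 in wild types and 2.36, 2.26 and 2.18 in knockouts, then 2.72, 3.27 and 2.47 in wild types, 3.83, 5.12 and 3.70 in knockouts and 3.44, 2.27 and 4.82 in treated animals, with knockouts above wild types and no call. Aif1, an actin-binding protein used to stain microglia, rose by 1.38 and 1.07 in quadriceps and 0.80 and 0.74 in cord. It too passed the quadriceps filter only through untreated knockout libraries. Arhgdib was not called in any comparison, with quadriceps differences of 0.47 ± 0.22 (adjusted p = 0.109) and 0.33 ± 0.22 (adjusted p = 0.248).

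**Figure D3:**
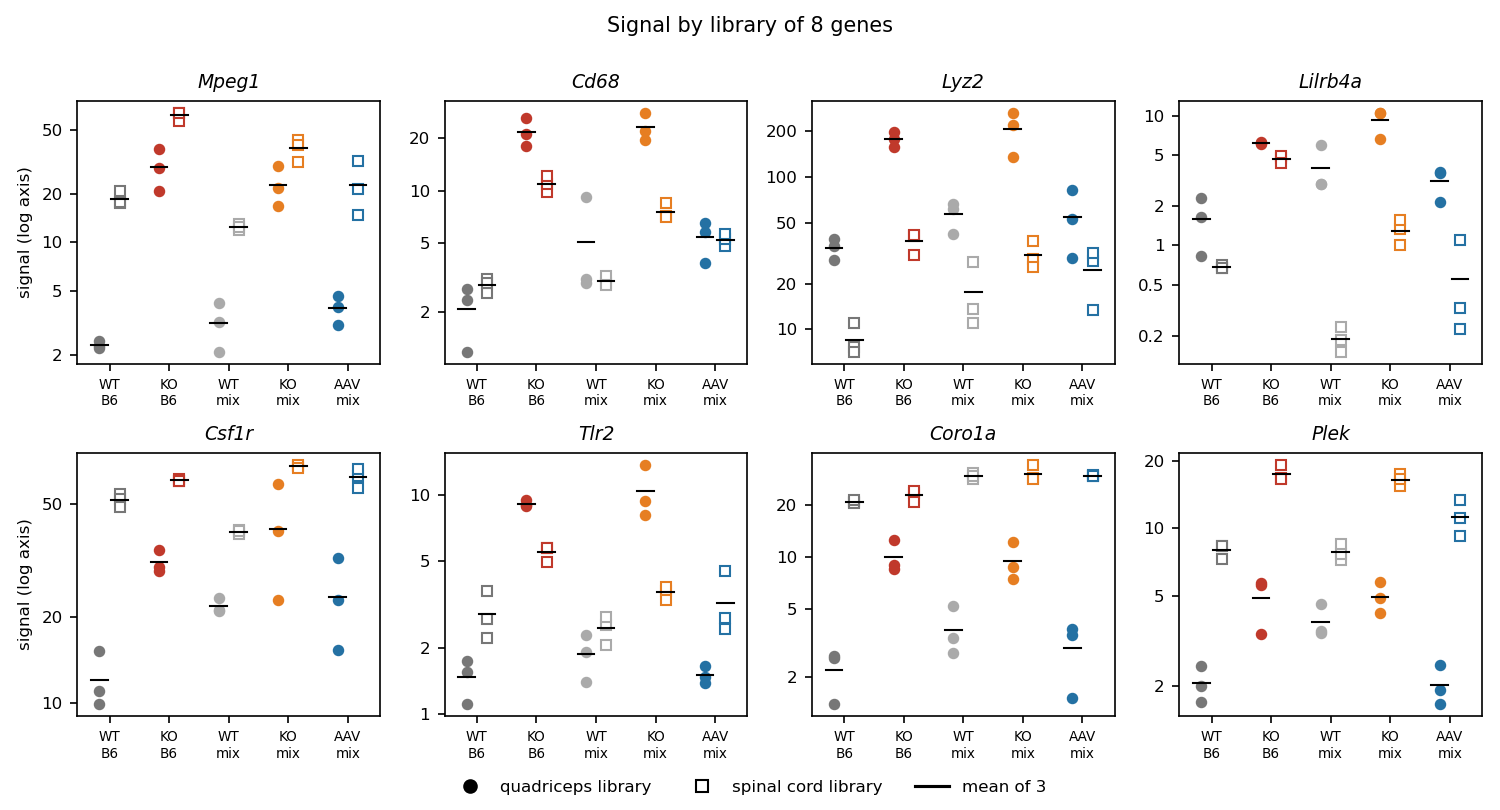
Signal of 8 genes (log axis) in each library by group; filled circles are quadriceps, open squares cord, and bars the mean of 3 libraries. Coro1a separates knockout from wild type in quadriceps only, while Plek in cord rises from 7.27 to 8.51 in mixed wild types to 15.5 to 17.4 in knockouts.

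Whether the effects differed between tissues was tested for the 38 genes kept in both. The tests compared log2 differences, so a gene called larger in quadriceps need not gain more signal there. Per kilobase of exon, B6;129 wild types and knockouts had mean Mpeg1 signals of 0.533 and 6.72 in quadriceps and 4.30 and 14.2 in cord. For Tlr2 they were 0.490 and 3.02 in quadriceps and 0.949 and 1.81 in cord. On B6;129 the knockout rise was larger in quadriceps for 19 of 38, with a median excess of 1.01, and smaller for 0. Of 13187 genes tested 12.2% were called in that direction. Among the 32 genes that passed the filter in both tissues without untreated knockouts this count was 17, and for the comparisons that follow it was 6 and 17. The smallest adjusted p belonged to Coro1a (1.85 ± 0.33, adjusted p = 0.000233), Tlr2 (1.44 ± 0.28, adjusted p = 0.000496), Csf2ra (1.28 ± 0.26, adjusted p = 0.000700), Mpeg1 (1.66 ± 0.34, adjusted p = 0.000807), Lcp1 (1.49 ± 0.32, adjusted p = 0.00140) and Cd84 (1.38 ± 0.32, adjusted p = 0.00233). Lilrb4a had a tissue difference of -0.40 ± 0.40 (adjusted p = 0.507), Lyz2 of 0.27 ± 0.49 (adjusted p = 0.737) and Adgre1 of 0.51 ± 0.42 (adjusted p = 0.403), none called. The count depended on single animals: it was 11 without B6;129 knockout 3 and 12 without B6;129 wild type 6. A fit with the animal as replicate block called 19.

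On the mixed background 7 of 38 genes rose more in quadriceps, where 13.6% of all genes were called in that direction, so this share of 38 was near the background. They were Tlr2 (1.70 ± 0.28, adjusted p = 6.48e-05), Coro1a (1.18 ± 0.33, adjusted p = 0.00866), Lcp1 (1.14 ± 0.32, adjusted p = 0.00913), Mpeg1 (1.10 ± 0.34, adjusted p = 0.0156), Ncf4 (0.83 ± 0.27, adjusted p = 0.0221), Cd84 (0.94 ± 0.32, adjusted p = 0.0253) and Cd68 (1.05 ± 0.39, adjusted p = 0.0432). 1 gene, Plek, rose less in quadriceps than in cord, by -0.70 ± 0.24 (adjusted p = 0.0274), in a direction where 18.7% of all genes were called. Without mixed knockout 6, whose muscle had the highest summed signal, 1 gene was called larger in quadriceps, and without mixed wild type 1 there were 4. The replicate block gave 9.

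The fall with treatment was larger in quadriceps than in cord for 20 of 38 genes and smaller for 0, with a median difference of -1.05 and 14% of all genes called in that direction. Tlr2 led with -2.23 ± 0.28 (adjusted p = 1.93e-06), followed by Ncf4 (-1.50 ± 0.27, adjusted p = 0.000160), Mpeg1 (-1.58 ± 0.34, adjusted p = 0.000863), Coro1a (-1.54 ± 0.33, adjusted p = 0.000945), Rac2 (-1.65 ± 0.36, adjusted p = 0.00109) and Cd53 (-1.16 ± 0.28, adjusted p = 0.00247). For the lineage genes no tissue difference was called, Csf1r reading -0.61 ± 0.32 (adjusted p = 0.146) and Csf2rb -0.08 ± 0.37 (adjusted p = 0.899). The count was 24 with the replicate block, 12 without treated animal 24, 9 without mixed knockout 6 and 13 without the 2 animals whose cords carried muscle RNA.

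**Figure D4:**
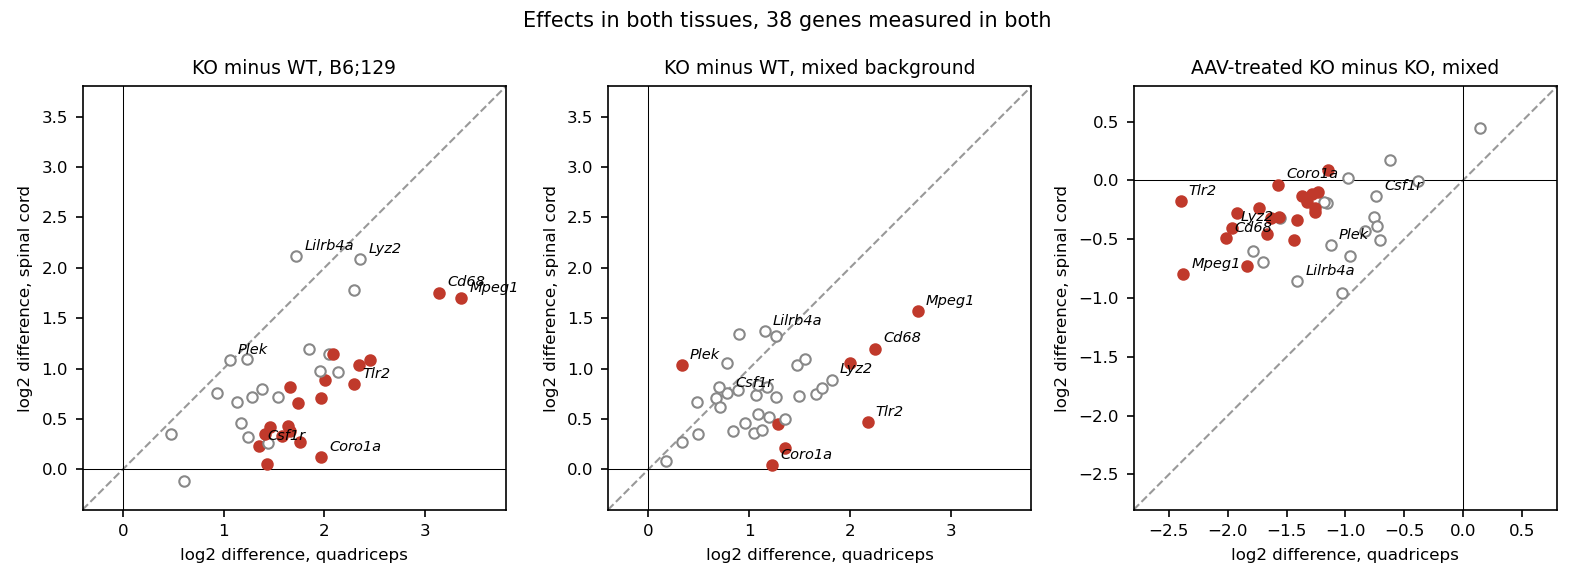
Log2 difference in quadriceps (horizontal axis) against cord (vertical axis) for the 38 genes kept in both tissues, for the knockout on each background and for treatment; the dashed line marks equal effects, and filled points differ between tissues at an adjusted p under 0.05 (19, 8 and 20 genes). Coro1a lies at 1.97 and 0.12 in the first panel, and Plek is the filled point above the line in the second.

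Per kilobase of exon, the order of the genes differed between the tissues of wild types. In B6;129 quadriceps Lyz2 had a mean signal of 26.1 per kilobase, ahead of Arhgdib (4.63) and Cyba (4.47). In B6;129 cord Csf1r led with 8.93, followed by Coro1a (7.52), Lyz2 (6.52) and Laptm5 (4.52). Across the 41 genes the knockout differences on the 2 backgrounds had a Pearson correlation of 0.874 in quadriceps, and across 38 genes 0.804 in cord. Between tissues the correlation was 0.625 on B6;129 and 0.406 on the mixed background, as a description over genes that share libraries.

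Other genes of the same pathways were counted from a list taken whole. It was chosen with earlier results of these data known, so its counts are a description and not independent support. In this list and those below, genes that passed the filter only through untreated knockouts were not set apart. Of 24 partners in phagocyte signalling, 19 rose in quadriceps on B6;129 (16.7% of all genes), 13 on the mixed background (17.1%), and 14 fell with treatment (17.1%). Of the 22 kept in cord 8 rose on B6;129 (0.998% of all genes) and 14 on the mixed background (7.16%). In B6;129 quadriceps the smallest adjusted p were those of Itgax, an integrin chain of macrophages and dendritic cells (2.78 ± 0.25, adjusted p = 2.97e-06), Runx1, a transcription factor of blood cells (2.97 ± 0.33, adjusted p = 1.84e-05), and Nckap1l, a regulator of actin (1.92 ± 0.28, adjusted p = 0.000140). In mixed quadriceps Itgax (2.48 ± 0.25, adjusted p = 6.70e-06) and Runx1 (2.00 ± 0.33, adjusted p = 0.000354) rose, and with treatment Itgax (-2.32 ± 0.25, adjusted p = 8.30e-06) and Runx1 (-2.80 ± 0.33, adjusted p = 1.97e-05) fell. In B6;129 cord the smallest were those of Tyrobp, the adaptor of several myeloid receptors (1.78 ± 0.14, adjusted p = 5.30e-06), Blnk, a signalling adaptor (0.90 ± 0.16, adjusted p = 0.0101), and Ptpn6, a phosphatase (0.93 ± 0.17, adjusted p = 0.0131), and in mixed cord Tyrobp (1.25 ± 0.14, adjusted p = 0.000121), Nckap1l (0.71 ± 0.11, adjusted p = 0.00155) and Dock2, an activator of Rac (0.75 ± 0.13, adjusted p = 0.00277). The same shares of all genes stand behind the ligands. Of 8 kept in quadriceps, 5 rose on B6;129, among them the chemokines Ccl8 (2.91 ± 0.53, adjusted p = 0.000819) and Cx3cl1 (1.08 ± 0.22, adjusted p = 0.00191) and the growth factor Csf1 (0.87 ± 0.21, adjusted p = 0.00589), and 3 on the mixed background, Cx3cl1 (1.40 ± 0.22, adjusted p = 0.000265), Ccl8 (2.62 ± 0.53, adjusted p = 0.00156) and Il34 (0.50 ± 0.18, adjusted p = 0.0410). With treatment 3 fell, Cx3cl1 (-0.92 ± 0.22, adjusted p = 0.00455), Ccl8 (-2.17 ± 0.53, adjusted p = 0.00479) and Ccl2 (-2.12 ± 0.57, adjusted p = 0.00935). Of 5 ligands kept in cord, 0 were called on B6;129, and on the mixed background Csf1 (0.58 ± 0.09, adjusted p = 0.00163) and the complement protein C3 (0.63 ± 0.12, adjusted p = 0.00486) rose while Cx3cl1 fell (-0.29 ± 0.09, adjusted p = 0.0481), where 5.85% of all genes were called lower.

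Markers of the cells that could hold these genes were set beside them. Of 10 microglial genes kept in cord, 3 rose on B6;129 (0.998% of all genes) and 7 on the mixed background (7.16%), and the list summed to 165 to 174 in B6;129 wild-type cords and 234 to 258 in knockouts. P2ry12, a receptor typical of resting microglia, rose by 0.58 ± 0.09 (adjusted p = 0.00334) and 0.72 ± 0.09 (adjusted p = 0.000263), and Fcrls, another microglial receptor, by 1.91 ± 0.34 (adjusted p = 0.0106) and 1.37 ± 0.34 (adjusted p = 0.0195). In quadriceps 7 of these genes were kept, of which 6 rose on B6;129 (16.7% of all genes) and 5 on the mixed background (17.1%), and 4 fell with treatment (17.1%). On B6;129 the smallest adjusted p was that of Cx3cr1 (2.05 ± 0.30, adjusted p = 0.000160), which blood-derived macrophages also express. Of 8 genes of border and resident macrophages, 0 rose in quadriceps on either background and 1, Cbr2, fell, by -0.81 ± 0.25 (adjusted p = 0.0203) and -1.04 ± 0.25 (adjusted p = 0.00459), and it rose with treatment by 0.80 ± 0.25 (adjusted p = 0.0189). Of all quadriceps genes 19% were called lower on B6;129, 22.3% were called lower on the mixed background, and 23.6% were called higher with treatment, so 1 of 8 was below each of these shares. Beside the 0 of 8 that rose in knockouts, 16.7% of all genes were called higher on B6;129 and 17.1% on the mixed background. The list summed to 52.2 to 88.0 in B6;129 wild-type muscle and 54.2 to 87.6 in knockouts. Of 10 neutrophil genes 8 were found and 0 kept in quadriceps, where their sum never exceeded 3.23. In cord 7 were kept and 0 called in either knockout comparison, with median differences of 0.43 on B6;129 and -0.50 on the mixed background. Of all cord genes 1.16% and 13% were called there in either direction. Of 5 mast cell genes 3 fell in mixed knockout quadriceps, where 22.3% of all genes were called lower, Cma1 (-1.37 ± 0.32, adjusted p = 0.00470), Mcpt4 (-0.92 ± 0.22, adjusted p = 0.00561) and Tpsb2 (-0.94 ± 0.29, adjusted p = 0.0196), and 0 were called on B6;129. Of the 6 muscle fibre genes 1 rose in knockout quadriceps on each background, Des, the filament desmin (0.69 ± 0.10 (adjusted p = 0.000197) and 0.41 ± 0.10 (adjusted p = 0.00622)). Of all genes 16.7% and 17.1% were called higher there, so 1 of 6 was near these shares. Myh4, a fast myosin, fell on both (-0.73 ± 0.17 (adjusted p = 0.00434) and -1.02 ± 0.17 (adjusted p = 0.000371)), and Ckm, muscle creatine kinase, fell on the mixed background (-0.46 ± 0.13, adjusted p = 0.0146). Beside these, 19% of all genes were called lower on B6;129 and 22.3% on the mixed background. With treatment 3 rose, Myh4 (1.31 ± 0.17, adjusted p = 4.07e-05), Acta1, skeletal actin (0.61 ± 0.16, adjusted p = 0.00855), and Ckm (0.50 ± 0.13, adjusted p = 0.00883), and Des fell (-0.29 ± 0.10, adjusted p = 0.0391). Among all genes 23.6% were called higher with treatment and 17.1% lower. The 5 red cell genes were not called in either tissue, but their sum ranged from 15.3 to 852 in mixed quadriceps. Of 12 lymphocyte genes 2 were found, with 1 kept in quadriceps and 0 in cord, so none could be tested in cord. Of 6 dendritic cell genes 2 were found, with 1 kept in quadriceps and 2 in cord. 0 of these kept genes were called in either knockout comparison. Of the 6 neuron and glia genes in cord 1 rose on each background, Gfap, the astrocyte filament protein, by 1.02 ± 0.13 (adjusted p = 0.000971) and 1.40 ± 0.13 (adjusted p = 2.97e-05). Among all cord genes 0.998% and 7.16% were called higher. On the mixed background 1 fell, Syt1, a synaptic vesicle protein (-0.35 ± 0.09, adjusted p = 0.0254), where 5.85% of all genes were called lower. By sign 3 of the 6 differences were positive and 3 negative on each background. The part of these cells in the results above was not tested.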

How the data were processed

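PolyA RNA of paired quadriceps and spinal cord was sequenced as single-end reads of 61 bases. The deposited table holds linear signal values; how the authors scaled them is not given in the sources used here, and the submitters' processing notes name cutadapt, RSEM, edgeR and limma on GRCm38 without versions. From the values, each signal is reads plus 0.5 divided by a scaled library size, and 100% of values gave whole reads within 0.001. The kit is not described as marking strand, and 15 of the 41 genes overlap another annotated gene. Columns were joined to samples by description, except 3 treated cord columns whose descriptions went against their titles and which were joined by the number in the title; 0 columns of other samples were left over.

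Signals were analysed as log2(signal + 0.5) with limma 3.58.1 in R 4.3.3 (moderated test with trend), per tissue over 15 libraries in 5 groups, with Benjamini-Hochberg adjustment over all kept genes. Tissue differences were fitted on 30 libraries without a block. Reads recovered from the signal were tested with edgeR 4.0.16 (quasi-likelihood). Further alternatives were a pseudocount of 2, a filter of 4 or none, quantile normalization, no trend, only the groups compared, leaving out each animal, and the animal as replicate block. The steps were checked on simulated data. Both tissues came from the same animal, and the deviations from group means correlated between tissues at 0.109 to 0.354 in 15 of 15 animals. The genes and lists were chosen with earlier results of these data known. Values by library are given for the 2 genes of each role with the highest mean signal and for genes called in cord or between tissues, or the 6 with the smallest adjusted p where over 12 were called; of other lists up to 3 called genes a comparison are named. Some genes of these lists are not reported here. Promoters were taken from the 4 genes with a match and the smallest adjusted p in B6;129 quadriceps, and that of Laptm5, with 191 bases in annotated exons, was over the limit of 30 and is not shown. Genes named beyond this were chosen after their values were seen. P-values set a difference between groups against the spread between libraries within groups. That spread is pooled over all groups of a fit and moderated across genes.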

Additional observations from a re-analysis of the deposited data

Results flagged for a closer look

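Differences between tissues were the main results that a test of the difference itself singled out. They compare log2 differences, not gains in signal. On B6;129, 19 of 38 genes rose more in quadriceps than in cord by limma (12.2% of all genes), with Coro1a at 1.85 ± 0.33 (adjusted p = 0.000233), Tlr2 at 1.44 ± 0.28 (adjusted p = 0.000496), Csf2ra at 1.28 ± 0.26 (adjusted p = 0.000700), Mpeg1 at 1.66 ± 0.34 (adjusted p = 0.000807), Lcp1 at 1.49 ± 0.32 (adjusted p = 0.00140) and Cd84 at 1.38 ± 0.32 (adjusted p = 0.00233) on the log2 scale. On the mixed background 7 rose more in quadriceps, a share of 38 near the 13.6% of all genes, namely Tlr2 at 1.70 ± 0.28 (adjusted p = 6.48e-05), Coro1a at 1.18 ± 0.33 (adjusted p = 0.00866), Lcp1 at 1.14 ± 0.32 (adjusted p = 0.00913), Mpeg1 at 1.10 ± 0.34 (adjusted p = 0.0156), Ncf4 at 0.83 ± 0.27 (adjusted p = 0.0221), Cd84 at 0.94 ± 0.32 (adjusted p = 0.0253) and Cd68 at 1.05 ± 0.39 (adjusted p = 0.0432). There 1 gene, Plek, rose more in cord, at -0.70 ± 0.24 (adjusted p = 0.0274), where 18.7% of all genes were called in that direction. The fall with treatment was larger in quadriceps for 20 genes (14% of all genes), with Tlr2 at -2.23 ± 0.28 (adjusted p = 1.93e-06), Ncf4 at -1.50 ± 0.27 (adjusted p = 0.000160), Mpeg1 at -1.58 ± 0.34 (adjusted p = 0.000863), Coro1a at -1.54 ± 0.33 (adjusted p = 0.000945), Rac2 at -1.65 ± 0.36 (adjusted p = 0.00109) and Cd53 at -1.16 ± 0.28 (adjusted p = 0.00247). Tlr2, Coro1a and Mpeg1 are named in all 3 comparisons, of which the last 2 share the mixed knockouts. Cd84 passed the filter in quadriceps only through untreated knockout libraries.

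In cord 1 gene differed between backgrounds in its knockout effect by limma, Csf1r at 0.53 ± 0.08 (adjusted p = 0.00663), with mean signals of 51.6 in wild types and 60.4 in knockouts on B6;129 and 39.9 and 67.7 on the mixed background.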

How the results depend on the processing

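Counts of called genes in each knockout comparison within a tissue stayed within 1.5 times of those reported under every alternative run. Shares of all genes were not computed with libraries or animals left out, or with only the groups compared. Quantile normalization called 1 gene, not 0, between treated and wild-type quadriceps. In cord the count that fell with treatment was 0 to 7 when single libraries were left out, with 7 without treated animal 24, and 6 without the 2 libraries carrying muscle RNA, an alternative added after seeing the data. The count above wild type in treated cord, 13, was 5 with only the groups compared and 6 without those 2 libraries. Leaving out single animals gave 11 to 16 genes with a larger rise in quadriceps on B6;129, 1 to 7 on the mixed background and 9 to 25 with a larger fall with treatment; the last was 13 without the 2 animals whose cords carried muscle RNA. With the animal as replicate block these 3 counts were 19, 9 and 24, against 19, 7 and 20. For single genes this block ended the call of Vav1 on B6;129 (0.84) and added Ly86 on both backgrounds, Lyz2 on the mixed background, and Adgre1, Cybb, Plek and Ly86 for treatment; it changed no other call. No value that passed the test changed sign. With 3 animals a group, and members such as Lilrb4a, Ms4a6c and Csf2rb near a signal of 1 in cord, small differences could not be detected.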
